A study of Mus musculus with 35 samples.

Results

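The 10 genes described here encode glutathione peroxidases (*Gpx1*, *Gpx3*, *Gpx4* and *Gpx6*), the enzymes that make and recycle glutathione (*Gclc*, *Gclm* and *Gsr*), the inducible enzymes NAD(P)H quinone reductase (*Nqo1*) and haem oxygenase (*Hmox1*), and the cytosolic superoxide dismutase *Sod1*. They were taken by name from the 22099 genes listed for the mouse striatum, and all 10 were among the 17639 genes with enough counts to be tested. The question was whether the low level of *Gpx6* in a mouse model of Huntington's disease stands alone among the antioxidant enzymes. The low *Gpx6* was already known when the list was drawn up, so its genotype values are given as a description. Striatal RNA was sequenced from 35 female mice on the C57BL6/J background, aged 299 to 304 days, with 1 library per mouse. Wild-type mice (Htt+/+) were compared with heterozygous knock-in mice (HttQ111/+), which carry an expanded CAG repeat in 1 copy of the endogenous *Htt* gene and so express mutant huntingtin from its own promoter in every cell type that uses it. Mice of each genotype had received weekly intraperitoneal saline (4 µL/g), an off-target control antisense oligonucleotide (control ASO, 50 mg/kg) or an antisense oligonucleotide against both alleles of *Htt* (Htt ASO, 50 mg/kg) from 2 to 10 months of age. The Htt+/+ control ASO group held 5 mice and the other 5 groups held 6 each.

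Glutathione is a small thiol that cells use to remove peroxides. Glutamate-cysteine ligase, built from the catalytic subunit GCLC and the modifier subunit GCLM, carries out the rate-limiting step of its synthesis. Glutathione peroxidases spend it to reduce hydrogen peroxide and lipid hydroperoxides, and glutathione reductase (GSR) returns the oxidised form to the pool with NADPH. Superoxide dismutases act a step earlier and turn superoxide into hydrogen peroxide. *Gclc*, *Gclm*, *Gsr*, *Nqo1* and *Hmox1* are textbook targets of the transcription factor NRF2, which is held down by KEAP1 until cells meet oxidants or electrophiles.

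*Gpx6* was the only member with a large genotype difference. It was 18.5 ± 2.16 CPM (counts per 1000000 counts of the library, mean ± SD, n = 17) in Htt+/+ mice and 4.95 ± 1.32 CPM (n = 18) in HttQ111/+ mice, a fitted level of 25.9% of wild type. The other 9 members lay within -13.1% and 8.55% of wild type, and their 95% intervals together reached from -18.7% to 13.2%. Of those 9, *Gpx1* rose and *Gsr*, *Gclc* and *Hmox1* fell, while *Gpx3*, *Gpx4*, *Gclm*, *Nqo1* and *Sod1* did not pass the test. With *Gpx6*, 5 of the 10 members were called by limma after voom at an adjusted p under 0.05, against 39.8% of all 17639 genes, so the number of calls does not set the group apart. In single directions 1 member was higher, against 21.8% of all genes, and 4 were lower, against 18% of all genes.

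Depth was even, at 32200158 to 38641924 counts per mouse, and no library was a copy of another of its group. The targeted gene, listed under its older symbol *Hdh*, ranged over group means of 71.6 to 90.2 CPM and was 14.7% lower in HttQ111/+ than in Htt+/+ mice (limma after voom, adjusted p = 0.001004). Htt ASO left striatal *Hdh* at 94.8% of the control ASO level (95% interval of the change -13.8% to 4.36%, adjusted p = 0.967), a difference within the spread between mice. All 12 markers of striatal projection neurons were present in every mouse. So were the listed choroid plexus, blood and cortical neuron markers, so presence alone does not identify the tissue. In 1 Htt+/+ control ASO mouse (replicate 1) the summed level of 5 choroid plexus markers was 1579 CPM, against at most 147.5 CPM elsewhere, and leaving it out changed none of the 10 members' calls for genotype over treatments. The sample titles carry an L and a number, read here as 6 sequencing lanes, of which lane 7 held 6 mice that were all HttQ111/+, so that lane and genotype are partly confounded. Where nothing else is said, p-values measure the spread between mice that the labels list as separate animals.

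Set on a common scale of CPM per kilobase of exon (lengths from GENCODE M21, build GRCm38), the order of the levels in Htt+/+ mice ran from *Gpx4* at 102.5 ± 6.29 CPM per kb down to *Gpx3* at 1.49 ± 0.265 CPM per kb (SD, n = 17). *Gpx1* (48.7 ± 3.55 CPM per kb) and *Sod1* (38.0 ± 1.70 CPM per kb) followed *Gpx4*, and the ranges of these 3 genes over the Htt+/+ mice did not overlap. Each length was that of all annotated exons of the gene together, from 1368 bases for *Gpx6* to 6291 for *Gclm*, with 3970 for *Sod1*. The order rests on these lengths. In plain CPM *Sod1* was above *Gpx1*, at 150.9 ± 6.76 against 70.1 ± 5.11 CPM in Htt+/+ mice. *Gclc* was the fourth at 16.4 ± 0.543 CPM per kb. *Gpx6* was the fifth in wild-type striatum at 13.6 ± 1.58 CPM per kb, and its range of 10.3 to 16.9 CPM per kb overlapped those of its neighbours *Gclc* and *Gsr* (12.6 ± 0.605 CPM per kb). *Nqo1* (3.69 ± 0.350 CPM per kb), *Gclm* (3.55 ± 0.218 CPM per kb) and *Hmox1* (2.73 ± 0.211 CPM per kb) made up the lower end with *Gpx3*, and the *Nqo1* range overlapped those of *Gclm* and *Hmox1*. In HttQ111/+ mice *Gpx6* was the sixth, at 3.62 ± 0.968 CPM per kb (n = 18), and its range of 1.95 to 5.17 CPM per kb now took in all values of *Nqo1*, *Gclm* and *Hmox1*. The other 9 genes kept their order. *Gpx4* counts were nearly all fractional, with whole numbers in 2.86% of mice, and the annotation lists 1 named pseudogene of it, so its level depends on how shared reads were divided.

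GPX6 is a glutathione peroxidase known chiefly from the olfactory epithelium, and the mouse enzyme carries cysteine where the human one carries selenocysteine. In the Htt+/+ mice *Gpx6* ran from 14.5 CPM through a median of 18.5 to 23.1 CPM under saline, was 18.8, 19.0, 18.7, 18.5 and 18.2 CPM in the 5 control ASO mice, and ran from 14.1 through 19.2 to 20.7 CPM under Htt ASO. In the HttQ111/+ mice the lowest, median and highest values were 2.66, 4.77 and 7.07 CPM under saline, 2.85, 5.601 and 6.67 CPM under control ASO, and 3.004, 4.72 and 6.16 CPM under Htt ASO. The genotypes did not overlap, as all 18 HttQ111/+ mice lay below all 17 Htt+/+ mice and the lowest wild-type mouse had 1.99 times the level of the highest HttQ111/+ mouse. Such a complete separation downwards was seen for 1.28% of all tested genes, and in either direction for 2.21%. *Gpx6* was the only member with it. The log2 fold change was -1.95 (SE 0.100) over treatments, -2.01 (SE 0.175) under saline, -1.87 (SE 0.174) under control ASO and -1.97 (SE 0.173) under Htt ASO. Of 15090 genes that averaged 1 CPM or more, *Gpx6* had the second lowest fold change, and among all 17639 tested genes it ranked 9 from the lowest. Raw counts behind these values ran from 95 to 774 per mouse, and the spread between HttQ111/+ mice, relative to their mean, was wider than in wild type (26.8% against 11.6%).

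**Figure D1:**
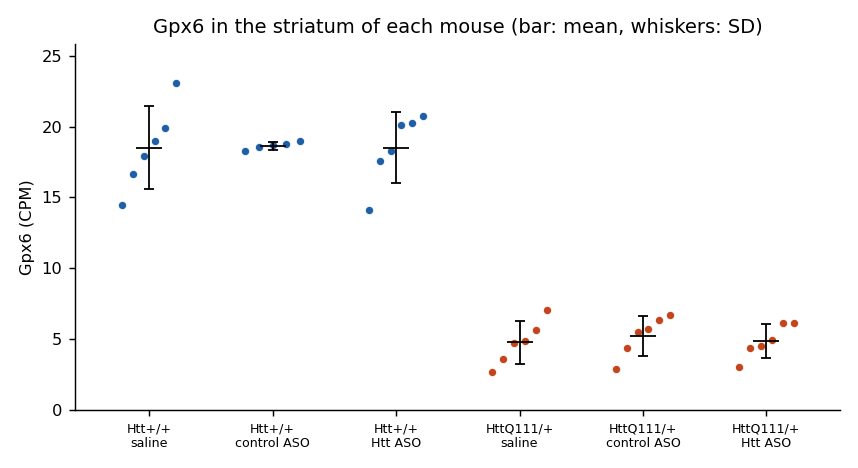
*Gpx6* in CPM (vertical axis) for each mouse of the 6 groups (horizontal axis), with points for mice, bars for group means and whiskers for the SD. Blue Htt+/+ points lie between 14.1 and 23.1 CPM and orange HttQ111/+ points between 2.66 and 7.07 CPM, with no overlap under any of the 3 treatments.

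In bulk striatal RNA, fewer cells of a type and less RNA per cell cannot be told apart. Markers of striatal projection neurons also moved with genotype. Of 12 such markers 10 were lower in HttQ111/+ mice, against 18% of all genes, and 1 was higher (*Tac1*, the precursor of substance P). The median log2 fold change of the 12 markers was -0.50. The lowest value was -0.92 for *Penk* (listed as *Penk1*), the enkephalin precursor of indirect pathway neurons. The summed level of the 12 markers ran from 6769 to 8542 CPM in Htt+/+ mice and from 4881 to 5847 CPM in HttQ111/+ mice. Per 1000 CPM of these markers, *Gpx6* was 2.41 ± 0.279 CPM in Htt+/+ mice and 0.916 ± 0.217 CPM in HttQ111/+ mice (SD), and the highest HttQ111/+ mouse (1.21) was below the lowest Htt+/+ mouse (1.76). The difference in *Gpx6* was therefore larger than that of the marker sum, and the part of cell composition in it was not tested. Of the other marker lists, 4 of 9 astrocyte markers were lower and 1 was higher, and 3 of 8 oligodendrocyte markers were lower. For choroid plexus 1 of 5 and for cortical neurons 1 of 6 markers were lower, near the 18% of all genes called lower. Of the blood markers 0 of 3 passed the test. In the 5 lanes with mice of both genotypes *Gpx6* was each time lower in HttQ111/+ mice, by log2 differences of -2.13 to -1.51, and without the lane 7 mice its fold change was -1.89.

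**Figure D2:**
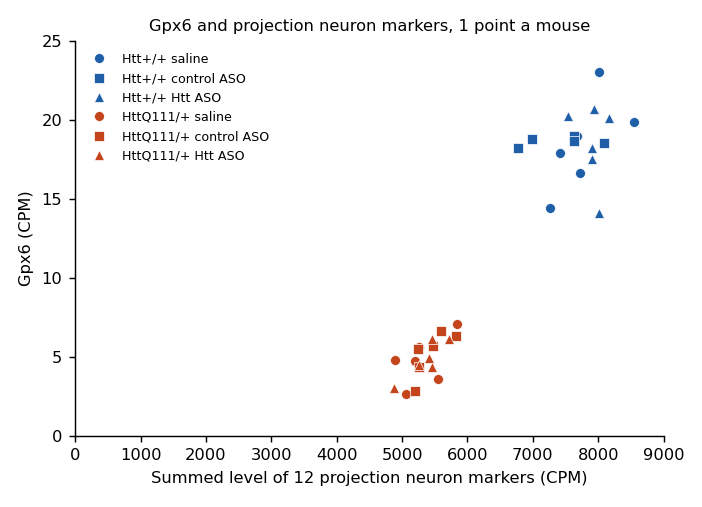
*Gpx6* in CPM (vertical axis) against the summed level of 12 projection neuron markers in CPM (horizontal axis), with 1 point a mouse, colours for genotype and symbols for treatment. The genotypes form separate clouds on both axes, 6769 to 8542 against 4881 to 5847 CPM for the markers and 14.1 to 23.1 against 2.66 to 7.07 CPM for *Gpx6*.

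When each gene's log2 CPM was centred on its mean over the 35 mice, the 5 genes nearest to *Gpx6* among 15080 candidates outside the list were *Ddit4l*, *Cpne9*, *Il2rb*, *Slc4a11* and *AK079438*, with root mean square differences of 0.288, 0.374, 0.388, 0.401 and 0.409, against a median of 1.03 over all candidates. By the same measure the other 9 members lay 0.937 (*Hmox1*) to 1.08 (*Gpx1*) from *Gpx6*, around that median. These genes had fold changes for genotype of -1.70 (SE 0.049) for *Ddit4l*, -1.55 (SE 0.080) for *Cpne9*, -1.59 (SE 0.111) for *Il2rb*, -1.44 (SE 0.076) for *Slc4a11* and -1.38 (SE 0.083) for *AK079438*, all on the log2 scale. *Ddit4l*, a relative of the stress-induced regulator *Ddit4*, fell from 38.8 ± 2.77 to 11.9 ± 1.45 CPM. The likeness was measured over mice of both genotypes and so was set mostly by the genotype difference itself.

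The core of the antioxidant response element that NRF2 binds, TGACNNNGC on either strand, was looked for in the RefSeq promoter windows of the members (build GRCm38.p6, 250 bases before to 50 bases after each annotated start), because several members are textbook NRF2 targets. Windows were given for 7 of the 10 genes, namely *Gpx1*, *Gpx3*, *Gpx4*, *Gpx6*, *Gclm*, *Nqo1* and *Sod1*. The core was present in the windows of *Gclm* and *Sod1*, which were 2 of the 10 windows of these genes, and in 12.4% of all 32851 promoter windows. Sequence outside the windows was not searched. The *Gpx6* window (chr13:21311953-21312252, plus strand), shown as that of the gene with the large change, held no match. The *Gclm* window (chr3:122245307-122245606, plus strand) and a 29-base stretch of the *Sod1* window (chr16:90220512-90220811, plus strand) are shown with the match in capitals, and neither gene passed the test for genotype. A match describes these letters and does not show binding.
Gpx6 promoter: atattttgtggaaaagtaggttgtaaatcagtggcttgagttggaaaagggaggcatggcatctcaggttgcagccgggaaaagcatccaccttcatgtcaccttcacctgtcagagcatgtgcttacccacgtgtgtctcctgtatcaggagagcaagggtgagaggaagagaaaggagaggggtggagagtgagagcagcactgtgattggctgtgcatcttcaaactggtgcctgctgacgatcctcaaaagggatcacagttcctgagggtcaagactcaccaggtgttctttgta
Gclm promoter: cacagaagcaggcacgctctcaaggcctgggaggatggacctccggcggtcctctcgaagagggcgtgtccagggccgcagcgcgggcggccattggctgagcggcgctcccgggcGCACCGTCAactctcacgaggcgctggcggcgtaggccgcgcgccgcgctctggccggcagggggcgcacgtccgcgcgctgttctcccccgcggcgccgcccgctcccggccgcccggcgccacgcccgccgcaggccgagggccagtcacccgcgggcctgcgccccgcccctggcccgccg
Sod1 match: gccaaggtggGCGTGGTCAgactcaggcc
The *Gclm* match begins 134 bases before the annotated start and the *Sod1* match 56 bases before it, both on the minus strand.

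The other glutathione peroxidases stayed near wild type. *Gpx1*, the main peroxidase for hydrogen peroxide in the cytosol and mitochondria, ran from 64.4 CPM through a median of 70.1 to 75.5 CPM in Htt+/+ saline mice, was 67.9, 75.1, 65.4, 71.1 and 62.5 CPM in the 5 Htt+/+ control ASO mice, and ran from 65.2 through 69.7 to 78.7 CPM in Htt+/+ Htt ASO mice. In HttQ111/+ mice it ran from 73.3 through 77.4 to 81.3 CPM under saline, from 70.5 through 73.9 to 78.5 CPM under control ASO, and from 68.5 through 76.5 to 83.1 CPM under Htt ASO. The genotypes overlapped broadly, but 17 of 18 HttQ111/+ mice were above the wild-type median. *Gpx1* rose by 8.55% (log2 fold change 0.12, SE 0.030, limma after voom, adjusted p = 0.00174), and it did not pass the test within a single treatment (adjusted p = 0.0827, 0.0976 and 0.169 under saline, control ASO and Htt ASO). Scaled by library totals alone, *Gpx1* passed in all 3 (adjusted p = 0.0120, 0.0320 and 0.0149 in limma). With lane as a covariate it passed over treatments (log2 fold change 0.086, adjusted p = 0.0132) and in no single treatment (adjusted p = 0.0550, 0.111 and 0.660). Under Htt ASO its log2 fold change then went from 0.10 to 0.032.

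*Gpx4*, which reduces phospholipid hydroperoxides in membranes and guards against ferroptosis, was 176.7 ± 10.8 CPM in Htt+/+ mice and 180.1 ± 8.78 CPM in HttQ111/+ mice (SD). Its difference of 2.24% had a 95% interval from -1.44% to 6.05% (adjusted p = 0.351 in limma), so a change of the size seen in *Gpx6* lay far outside it. *Gpx3*, the secreted peroxidase of plasma, was low, at 2.70 ± 0.481 against 2.55 ± 0.495 CPM, with 60 to 133 counts per mouse. Its interval was the widest of the 9 genes other than *Gpx6*, from -17.4% to 6.14% (adjusted p = 0.428). Scaled by library totals instead of TMM, *Gpx4* passed the test (log2 fold change 0.071, adjusted p = 0.0198). Of the 4 remaining family members, *Gpx5* was not matched, *Gpx2* was too low to test, *Gpx8* (listed as *2310016C16Rik*) did not pass the test, and *Gpx7*, a peroxidase of the endoplasmic reticulum, rose by 12.6% (log2 fold change 0.17, SE 0.062, adjusted p = 0.0270). The *Gpx7* call was lost with lane as a covariate (adjusted p = 0.123) and without the lane 7 mice (adjusted p = 0.117).

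**Figure D3:**
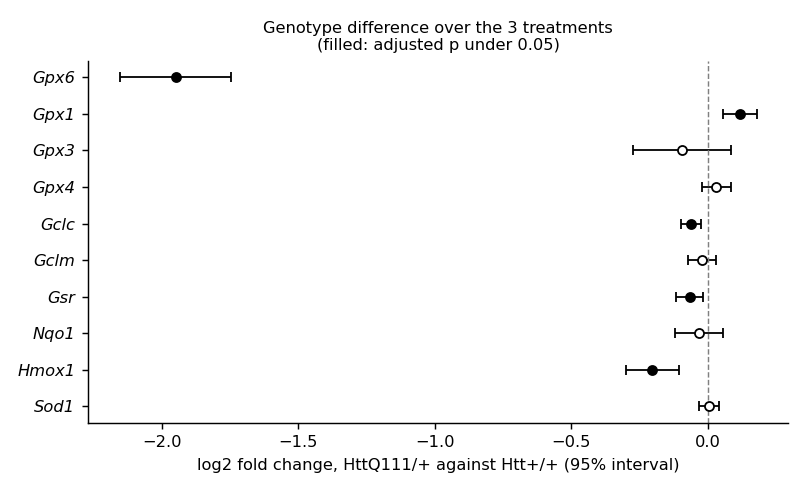
Log2 fold change of HttQ111/+ against Htt+/+ over the 3 treatments (horizontal axis) for the 10 genes (vertical axis), with points for estimates and whiskers for 95% intervals, filled where the adjusted p was under 0.05. *Gpx6* stands at -1.95 and the other 9 genes lie between -0.20 and 0.12.

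The genes for glutathione synthesis and recycling differed by a few percent. *Gclc*, the catalytic subunit of glutamate-cysteine ligase, was among the steadiest of the 10 genes, at 61.9 ± 2.05 CPM in Htt+/+ mice and 59.3 ± 2.00 CPM in HttQ111/+ mice (SD). Its values ran from 61.0 through 62.2 to 64.0 CPM under saline and from 57.7 through 61.9 to 64.6 CPM under Htt ASO in Htt+/+ mice, and were 62.2, 58.4, 64.1, 64.6 and 60.2 CPM in the 5 control ASO mice. In HttQ111/+ mice they ran from 56.0 through 59.1 to 61.6 CPM under saline, from 55.9 through 60.7 to 61.0 CPM under control ASO, and from 56.4 through 58.5 to 62.2 CPM under Htt ASO. The groups overlapped, with 17 of 18 HttQ111/+ mice under the wild-type median, and *Gclc* fell by 4.21% (log2 fold change -0.062, SE 0.018, limma after voom, adjusted p = 0.00620). *Gclm*, its modifier subunit, was 22.3 ± 1.37 against 22.03 ± 1.196 CPM, with a 95% interval of the difference from -4.94% to 2.17% (adjusted p = 0.551).

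*Gsr*, which regenerates reduced glutathione, was 34.6 ± 1.67 CPM in Htt+/+ mice and 33.1 ± 1.54 CPM in HttQ111/+ mice, with ranges of 31.99 to 37.6 and 30.8 to 36.1 CPM. It fell by 4.43% (log2 fold change -0.065, SE 0.024, limma after voom, adjusted p = 0.0305), with 14 of 18 HttQ111/+ mice under the wild-type median. This call was near the threshold and was lost when any of 5 mice was left out (Htt+/+ saline replicate 1, Htt+/+ control ASO replicates 2 and 3, HttQ111/+ saline replicate 2 and HttQ111/+ control ASO replicate 5, adjusted p = 0.0516 to 0.0620). The calls of *Gsr* and *Gclc* were also lost with library totals in place of TMM, where the fold changes were -0.027 (adjusted p = 0.392) and -0.023 (adjusted p = 0.347) on the log2 scale. That scaling moved the median of all genes from 0.0037 to 0.043 and the share of higher genes among all those called from 54.7% to 72.1%.

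*Hmox1*, the inducible enzyme that splits haem, was the member with the second largest difference, though far from that of *Gpx6*. It was 4.77 ± 0.370 CPM in Htt+/+ mice and 4.18 ± 0.526 CPM in HttQ111/+ mice (SD), and fell by 13.1% (log2 fold change -0.20, SE 0.047, limma after voom, adjusted p = 0.000794). In Htt+/+ mice it ran from 4.21 through 4.69 to 5.20 CPM under saline, was 5.58, 4.66, 4.44, 5.33 and 4.81 CPM under control ASO, and ran from 4.36 through 4.70 to 4.98 CPM under Htt ASO. In HttQ111/+ mice it ran from 3.48 through 3.84 to 5.13 CPM under saline, from 3.53 through 3.91 to 4.64 CPM under control ASO, and from 3.94 through 4.49 to 5.26 CPM under Htt ASO. Under saline and under control ASO 5 of 6 HttQ111/+ mice were below all wild-type mice of that treatment, and under Htt ASO 1 of 6 was. The genotype difference passed the test under saline (log2 fold change -0.24, adjusted p = 0.0343) and control ASO (-0.32, adjusted p = 0.00712) and not under Htt ASO (-0.041, adjusted p = 0.775). The test of whether the genotype difference depended on Htt ASO against control ASO gave an interaction of 0.28 (SE 0.116) with an unadjusted p of 0.0217 and an adjusted p of 0.999, so a dependence was not shown.

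Over treatments, *Hmox1* was lower in HttQ111/+ mice in 5 of 5 lanes with both genotypes, by log2 differences of -0.33 to -0.066. The call under saline alone was lost with lane as a covariate (log2 fold change -0.21, adjusted p = 0.0933), with library totals in place of TMM (-0.21, adjusted p = 0.0684), without the lane 7 mice (-0.12, adjusted p = 0.5001) and without any of 7 mice (Htt+/+ saline replicates 1, 3 and 4 and HttQ111/+ saline replicates 1, 2, 4 and 6, adjusted p = 0.0543 to 0.104). Most markers of vessel and microglial cells were also lower over treatments, against 18% of all genes. Of 7 endothelial markers 6 were lower in HttQ111/+ mice (median log2 fold change -0.17, summed level 247.4 to 390.3 CPM in Htt+/+ and 226.0 to 266.6 CPM in HttQ111/+ mice). The highest sum was that of 1 Htt+/+ control ASO mouse, with the next at 314.4 CPM. Under Htt ASO the endothelial sums did not overlap, at 274.0 to 314.4 CPM in Htt+/+ and 238.4 to 266.6 CPM in HttQ111/+ mice. *Hmox1* itself differed there by a log2 fold change of only -0.041. Of 10 microglial markers 7 were lower (median -0.096, summed level 581.5 to 678.9 against 527.4 to 634.9 CPM). Per 1000 CPM of the endothelial markers *Hmox1* was 17.2 ± 2.23 CPM in Htt+/+ and 17.0 ± 1.79 CPM in HttQ111/+ mice, and per 1000 CPM of the microglial markers it was 7.61 ± 0.538 and 7.08 ± 0.870 CPM (SD). These ratios pool the 3 treatments, and the endothelial markers also differed with treatment. For Htt ASO against saline 3 of the 7 were called higher and 1 lower (1.47% of all genes called). Against control ASO 1 was higher and 1 lower (0.935% of all genes). The part of these cells in the *Hmox1* difference was not tested.

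*Nqo1*, a cytosolic quinone reductase and a common readout of NRF2 activity, was 5.73 ± 0.543 CPM in Htt+/+ mice and 5.596 ± 0.529 CPM in HttQ111/+ mice. Its interval ran from -7.99% to 3.87% (limma, adjusted p = 0.586). *Sod1*, the copper and zinc superoxide dismutase of the cytosol, was 150.9 ± 6.76 against 151.0 ± 4.64 CPM, the closest match of the 10. The interval of its difference ran from -2.13% to 2.81% (adjusted p = 0.866) with TMM, while with library totals it passed the test at a log2 fold change of 0.043 (adjusted p = 0.0423). Its gene lies across from *Scaf4* on the opposite strand, with which it overlaps in the annotation. On the same strand *Gsr* overlaps the snoRNA *Gm24727*, and *Gclm* the transcribed pseudogene *Gm6061*.

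**Figure D4:**
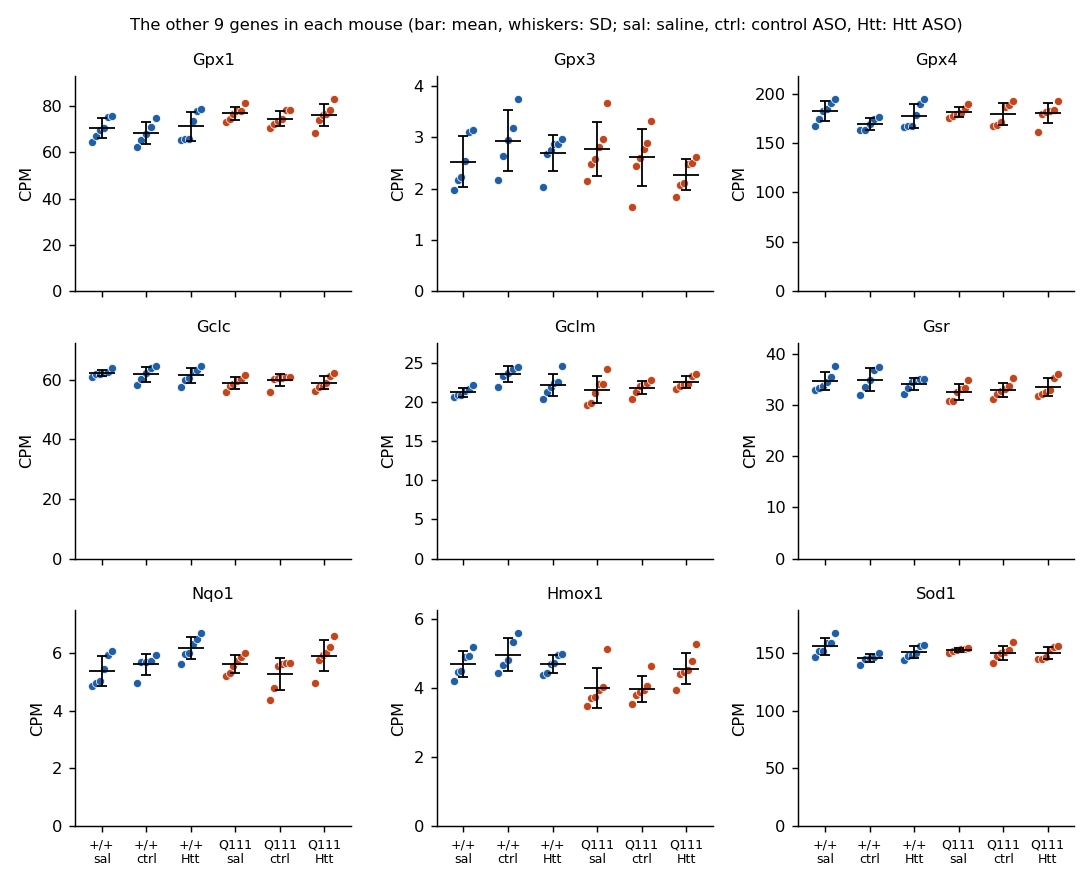
CPM (vertical axes, from 0) of the 9 members other than *Gpx6* for each mouse of the 6 groups (horizontal axes), with points for mice in blue for Htt+/+ and orange for HttQ111/+, bars for means and whiskers for the SD. The colours overlap in every panel, and *Hmox1* shows most of its orange points low under saline and control ASO.

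Within single treatments the members called were *Gpx6* and *Hmox1* under saline (2 of 10, both lower, against 17.4% of all genes and 8.78% lower), the same pair under control ASO (2 of 10, against 18.5% and 8.46% lower), and *Gpx6* under Htt ASO (1 of 10, against 21.2% and 10.2% lower). These 3 comparisons use separate mice but share 1 estimate of the spread.

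Treatment moved none of the 10 genes past the test. Over both genotypes limma after voom called 0 members for Htt ASO against control ASO (0.935% of all genes), 0 for Htt ASO against saline (1.47%) and 0 for control ASO against saline (0%), with 1, 2 and 2 members at an unadjusted p under 0.05, and edgeR and DESeq2 called 0 as well. These comparisons share treatment groups with one another. For Htt ASO against control ASO, 0 members were called in Htt+/+ mice (0.295% of all genes, 0 members at an unadjusted p under 0.05) and 0 in HttQ111/+ mice (0.357%, 2 members), again with 0 in edgeR and DESeq2. *Gpx6* differed by -0.065 (SE 0.123, adjusted p = 0.978) between Htt ASO and control ASO and by 0.032 (SE 0.123, adjusted p = 0.972) between Htt ASO and saline, on the log2 scale, so the 3 treatments did not separate *Gpx6* beyond the spread between mice. In HttQ111/+ mice alone the first of these differences was -0.11, with a 95% interval from -0.54 to 0.31.

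In the comparisons over both genotypes, the largest treatment difference among the members was that of *Nqo1*. Within HttQ111/+ mice *Gpx3* had a larger value for Htt ASO against saline (-0.28, SE 0.153, adjusted p = 0.877 in limma), which did not pass the test. *Nqo1* ran from 5.63 through 6.15 to 6.69 CPM in Htt+/+ Htt ASO mice and from 4.96 through 5.97 to 6.59 CPM in HttQ111/+ Htt ASO mice. Under control ASO it had a median of 5.704 CPM in Htt+/+ and 5.58 CPM in HttQ111/+ mice, and under saline of 5.24 and 5.64 CPM. The groups overlapped, and the difference was 0.15 on the log2 scale against control ASO (SE 0.053, unadjusted p = 0.00662, adjusted p = 0.335 in limma) and 0.13 against saline (SE 0.051, adjusted p = 0.338). *Gclm* was 0.084 higher under control ASO than under saline (SE 0.032, adjusted p = 0.596) and *Sod1* 0.061 lower, which is also short of the test (adjusted p = 0.588). In Htt+/+ mice alone these differences were 0.14 and -0.097 (adjusted p = 0.333 for each in limma), and in HttQ111/+ mice 0.023 and -0.024. Control ASO against saline put 3 members under an unadjusted 0.05 in Htt+/+ mice (11.8% of all genes) and 0 in HttQ111/+ mice (2.9%). It called 0 members in either genotype. The 3 interactions of genotype with treatment called 0 members and 0% of all genes, with *Gclm* and *Hmox1* (2 members) under an unadjusted 0.05 in the interaction with Htt ASO against control ASO and 0 for each of the other two, and 0 by edgeR and DESeq2.

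Of 108 further genes on 7 pathway lists 99 were tested, and the lists were chosen with earlier results of these data known. For genotype over treatments 51 were called (51.5%, against 39.8% of all genes), 26 higher and 25 lower. In a fit of only the genes averaging at least 1 CPM, 6798 of 15093 were called. The median log2 fold change of the 99 pathway genes was 0.013, beside 0.0037 over all genes. None came near *Gpx6*, as the fold changes ran from -0.73 to 0.47. The lowest value was that of the glutamate transporter *Slc1a2*, picked out after its value was seen, which varied widely between mice (166.4 ± 75.6 CPM in Htt+/+ and 103.0 ± 57.2 CPM in HttQ111/+ mice, adjusted p = 0.0237).

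**Figure D5:**
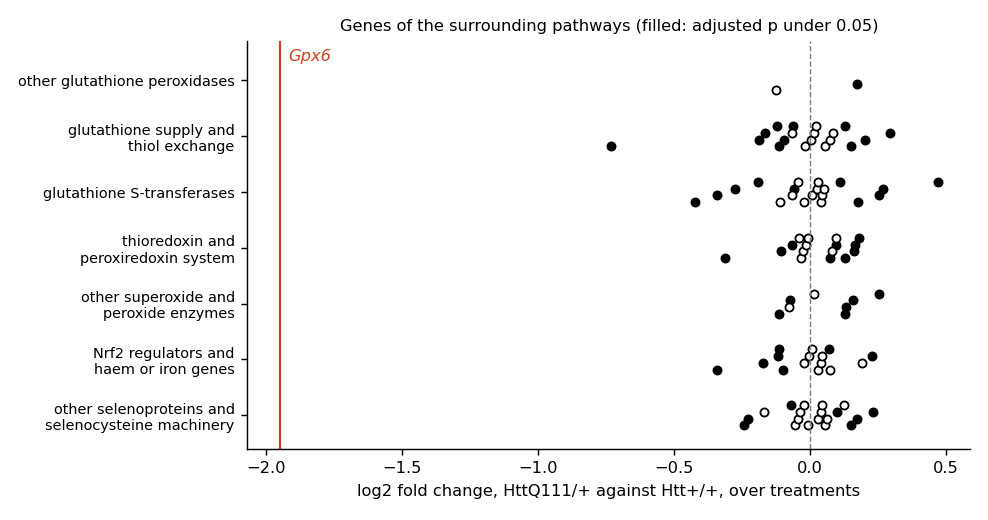
Log2 fold change of HttQ111/+ against Htt+/+ over treatments (horizontal axis) for the 99 tested genes of 7 pathway lists (vertical axis), 1 point a gene, filled where the adjusted p was under 0.05, with a vertical line at *Gpx6*. All points lie between -0.73 and 0.47, on both sides of 0, and the *Gpx6* line stands apart at -1.95.

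Of 19 genes for glutathione supply and thiol exchange 4 rose and 7 fell (median log2 fold change 0.0053). *Glrx*, which removes glutathione from protein thiols, rose by 22.5% (12.9 ± 1.0001 to 15.8 ± 0.839 CPM, adjusted p = 1.14e-08), and *Ggt7* (listed as *Ggtl3*), a relative of the glutathione-cleaving transpeptidases, rose by 14.997%. Of 20 tested glutathione S-transferases 5 rose and 5 fell (median 0.017). *Gsto1*, of the omega class, rose by 38.5% (12.97 ± 1.14 to 17.9 ± 0.748 CPM, adjusted p = 1.15e-13), and *Gstm6*, of the mu class, fell by 21.2%. Genes of the mu class are close copies of one another, so reads may have been divided between them.

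Of 16 genes of the thioredoxin and peroxiredoxin system, which removes peroxides largely without glutathione, 6 rose and 3 fell (median 0.034). *Prdx2*, an abundant neuronal peroxiredoxin, rose by 13.3% (139.6 ± 6.42 to 158.0 ± 6.10 CPM, adjusted p = 2.52e-09) and thioredoxin itself (*Txn1*) by 11.8%. Of 8 other superoxide and peroxide enzymes 4 rose and 2 fell (median 0.073). *Sod2*, the mitochondrial superoxide dismutase, rose by 9.73% (171.7 ± 4.30 to 188.4 ± 5.85 CPM, adjusted p = 1.14e-08), which differs from *Sod1* in passing the test, a difference between the genes that was not itself tested. *Msrb2*, a mitochondrial methionine sulfoxide reductase, rose by 19.2%.

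Among 15 regulators of NRF2 and genes of haem or iron handling 2 rose and 5 fell (median 0.0071). *Nfe2l2*, which encodes NRF2, and *Keap1* did not pass the test (log2 fold changes of -0.0044 and 0.043, adjusted p = 0.929 and 0.207), values chosen here as those of the pathway's regulator and its inhibitor. *Blvrb*, which encodes biliverdin reductase B, fell by 21.1% (5.88 ± 0.708 to 4.61 ± 0.491 CPM, adjusted p = 5.17e-06 in limma), and *Nfe2l1*, a relative of *Nfe2l2*, fell by 6.69%. Of 19 tested genes for other selenoproteins and the selenocysteine machinery 4 rose and 3 fell (median 0.028). *Msrb1* (listed as *Sepx1*), a selenoprotein that repairs oxidised methionine, rose by 17.4%, and *Eefsec*, the elongation factor that delivers selenocysteine, rose by 12.7%. For treatment over both genotypes these 7 lists held a call in only 1 comparison, *Prdx6* for Htt ASO against saline (log2 fold change -0.095, SE 0.020, adjusted p = 0.00459), a gene named after its value was seen.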

How the data were processed

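Striatal RNA of 35 mice (right side, left in 1 Htt+/+ Htt ASO mouse) was sequenced from stranded mRNA libraries. The authors aligned reads to the mouse transcriptome (MGSCv37, mm9) with Bowtie 0.12.9 and deposited RSEM 1.1.18 expected counts per gene, not scaled for depth. From these, CPM were computed on TMM-scaled library sizes (factors 0.971 to 1.03), and log2 CPM used a prior count of 2. The label ASO1 was taken as Htt ASO.

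R 4.3.3, limma 3.58.1 and edgeR 4.0.16 were used. Genes were filtered with filterByExpr (minimum count 10, minimum total 15) and tested with voom and limma's empirical Bayes test on 1 mean per group (29 residual and 4.30 prior degrees of freedom), with Benjamini-Hochberg adjustment over all 17639 tested genes, threshold 0.05. The code was tested on simulated data. Pairs of mice within a group differed beyond sampling noise (chi-square over degrees of freedom 3.57 to 16.5 in 85 pairs). Depth limits the low genes most, with 60 to 133 counts for *Gpx3* and 129 to 200 for *Hmox1* per mouse.

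Members, pathway lists and markers were chosen with earlier results of these data known. The text names all 10 members, the 2 genes per pathway list with the smallest adjusted p for genotype, and the 5 genes most like *Gpx6*. Ratios of *Gpx6* and *Hmox1* to marker sums were added after the values were seen. As alternatives, rounded counts were tested by edgeR (quasi-likelihood) and DESeq2 1.42.0, and the rest were other scalings and filters, lane, quality weights, robust empirical Bayes, mouse name letters as a random effect, and leaving out each mouse, the left-side mouse or lane 7. Gene names were matched through RefSeq synonyms.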

Additional observations from a re-analysis of the deposited data

Results flagged for a closer look

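Of the 60 sets of 1 member in 1 group, 4 held a mouse far from the others of its group by the gap to the nearest mouse relative to the range, where chance flags about 1 in 20. *Gpx3* was 2.02 CPM in Htt+/+ Htt ASO replicate 4, against 2.68 to 2.96 CPM in the other mice of that group. *Gclc* was 55.87 CPM in HttQ111/+ control ASO replicate 2, against 60.2 to 61.0 CPM. *Nqo1* was 4.959 CPM in Htt+/+ control ASO replicate 3, against 5.69 to 5.95 CPM. *Hmox1* was 5.134 CPM in HttQ111/+ saline replicate 5, the only high mouse of the 4, against 3.48 to 4.01 CPM. These were 4 different mice, and no interaction of genotype with treatment was called for a member.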

How the results depend on the processing

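The genotype differences of *Gpx6*, *Gpx1* and *Hmox1* over treatments kept their direction and call under all 12 alternatives and without each of the 35 mice, at log2 fold changes of -1.99 to -1.85, 0.086 to 0.16 and -0.22 to -0.16. Members called for genotype over treatments numbered 4 to 5, and pathway genes called 40 to 56. Calls among all tested genes ran from 5758 of 17771 without the lane 7 mice to 8089 of 17639 with library totals. The 5 members were not always the same. With library totals *Gpx4* and *Sod1* took the place of *Gsr* and *Gclc*, so that 3 members were higher instead of 1. Under saline 1 member was called with lane as a covariate and without lane 7 mice, and 1 to 3 without a single mouse. The TMM factors ran from 0.971 to 1.003 in Htt+/+ mice and from 0.993 to 1.03 in HttQ111/+ mice. Library totals leave this scaling out by construction, and the median genotype fold change of all genes then moved from 0.0037 to 0.043. With library totals *Gpx1* passed within each treatment, and 2 members were called under Htt ASO (*Gpx1* and *Gpx6*). *Hmox1* then lost its call under saline. *Gclm* (0.018) and *Nqo1* (0.0061) turned positive over treatments, and *Gsr* (0.025) and *Hmox1* (0.013) under Htt ASO. The differences of *Sod1* and *Gpx4*, close to 0, turned negative with lane as a covariate (-0.00048 and -0.00034), and that of *Sod1* also in DESeq2 (-0.00022) and without lane 7 mice (-0.0020). Without a single mouse *Sod1* ran from -0.0057 to 0.011, and *Hmox1* under Htt ASO from -0.084 to 0.0023. Beyond the scaling by library totals, the cause of these changes was not tested. For treatment and interactions 0 members were called under every alternative. No paired analysis was possible because the labels give no replicate numbers that tie mice of different groups together. Mice whose names share their letters were fitted as a random effect (consensus correlation 0.0909), with 5 members called.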
